A study of Mus musculus with 6 samples.

Results

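RNA was sequenced in 6 libraries from immortalized fibroblasts of mouse embryos, the spindle-shaped cells that make connective tissue. Of the 6 libraries 3 were labelled wild type (WT) and 3 knockout (KO) for PME-1. All cells were grown in DMEM with 10% serum and collected 24 hours after seeding, and neither how the knockout was made nor whether each line is 1 clone is given in the sources used here. PME-1, the product of Ppme1, is the enzyme that removes a methyl group from protein phosphatase 2A. Besides genotype, the libraries fell into a second division that crosses it. WT 1, KO 2 and KO 3 lie on one side, called the WT 1 side here, and WT 2, WT 3 and KO 1 on the other, called the KO 1 side. This split takes 3 of 6 libraries on each side and was chosen from the measured counts themselves, so the sizes of its differences are given as a description and carry no test. No label records a culture, passage, density or sequencing run that would divide the libraries this way, and a shared state of the cultures and a shared step of library making cannot be told apart. The labels do not say whether libraries of a genotype came from separate cultures, animals or clones, so the p-values below reflect how these libraries vary, which may be technical variation.

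Interferons act through JAK kinases and transcription factors of the STAT and IRF families, which switch on antiviral genes by binding the interferon-stimulated response element, and the same signals raise MHC class I antigen presentation. Ribosome biogenesis is the making of ribosomes in the nucleolus and is driven by the transcription factor MYC in growing cells. Lysosomal enzymes are regulated as a group by TFEB and its relatives, which growth signals hold outside the nucleus. Contractile genes of the actin cytoskeleton are controlled by SRF and its actin-sensing cofactors, which respond to cell shape and tension.

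The sides overlapped in depth. Total counts ranged from 34450993 to 44116310 per library, mitochondrial reads made up 0.540% to 0.962% on the WT 1 side and 0.499% to 0.811% on the KO 1 side, and 18314 to 19442 genes had reads. Ppme1 (ENSMUSG00000030718.9, minus strand of GRCm38 chr7:100326737-100372307) was at 78.4, 80.7 and 86.6 CPM (counts scaled to library size) in WT 1 to 3 and at 18.2, 14.9 and 18.9 CPM in KO 1 to 3, so every library matched its genotype label (edgeR adjusted p = 0.000563), and its split difference was -0.10 on the log2 scale. Every WT library carried Xist (370 to 490 CPM) and had 0 reads of the Y-linked gene Ddx3y, and every KO library had Xist at 0.117 to 0.31 CPM and Ddx3y at 58.4 to 71.8 CPM, so genotype cannot be told apart from the sex of the source cells, whereas each side of the split held libraries of both kinds. All 12 fibroblast markers were tested, and their summed level was 14083 to 17101 CPM on the WT 1 side and 16540 to 23410 CPM on the KO 1 side. Of 12 macrophage and leukocyte markers 8 had no reads in any library, Adgre1, Itgam and Tyrobp among them, and the summed level of the list was 6.10 to 8.63 CPM on the WT 1 side and 5.30 to 6.65 CPM on the KO 1 side. The summed level of 8 neural and glial markers went with the split (249 to 474 CPM against 135 to 212 CPM), almost all of it from nestin (Nes), an intermediate filament protein also found in cultured mesenchymal cells, and Sox10 had no reads. The 9 epithelial markers were summed at 8.54 to 32.0 CPM in WT and 127 to 147 CPM in KO, with the sides overlapping. Of the 6 tested, 5 had a negative split difference, and the median was -0.97, against a median genotype difference (KO minus WT) of 2.53. Krt19 was the 1 that went the other way, at 1.63 (29.5, 7.85 and 5.65 CPM in WT; 29.1, 64.8 and 65.9 CPM in KO). The part of other cell types in the split was not tested, and in bulk samples fewer cells of a type and less RNA per cell cannot be told apart.

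Within each genotype 1 library stood apart. The chi-square per degree of freedom of the counts was 13.2 between WT 2 and WT 3 and 13.8 between KO 2 and KO 3, against 122.2 and 136.2 between WT 1 and the other WT libraries and 128.7 and 151.3 between KO 1 and the other KO libraries. WT 1 was nearer to KO 2 and KO 3 (97.0 and 86.9) than to its own genotype, whereas KO 1 lay at 131.9 and 141.4 from WT 2 and WT 3, inside the range to its own. WT 1 and KO 1 lay far from each other (217.7). In a principal component analysis of log2 CPM the first component, with 49.4% of the variance, separated WT from KO. The second, with 27.6%, separated the sides, with scores of 60.9 in WT 1, 27.8 in KO 2 and 28.7 in KO 3 against -32.1 in WT 2, -25.8 in WT 3 and -59.4 in KO 1. WT 1 and KO 1 thus held its ends, and the remaining libraries lay between them. Over all genes genotype alone took up 49.3% of the variance of log2 CPM, the split alone 30.2%, and both together 76.8%.

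**Figure D1:**
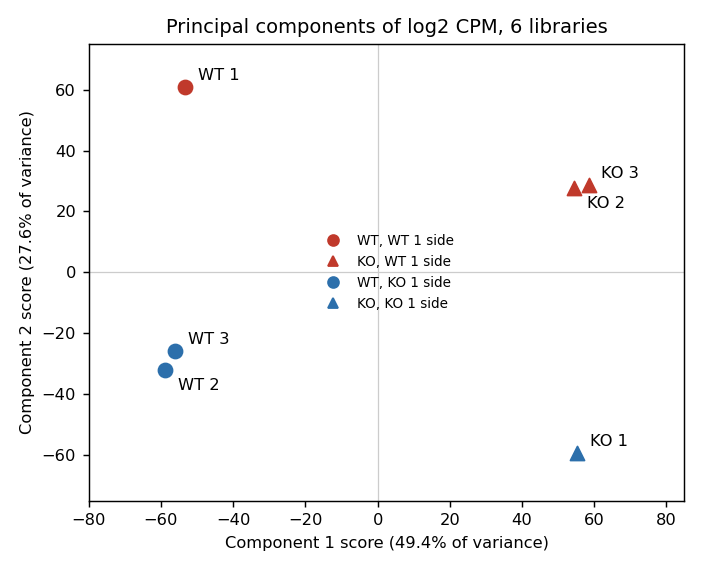
Scores of the 6 libraries on the first (x axis) and second (y axis) principal components of log2 CPM, with circles for WT and triangles for KO, red for the WT 1 side and blue for the KO 1 side. The x axis separates genotypes, and on the y axis WT 1 (60.9) and KO 1 (-59.4) hold the ends with KO 2 and KO 3 above 0 and WT 2 and WT 3 below it.

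The split was measured for every gene in 2 ways. An additive fit of genotype and side gave a split difference (WT 1 side minus KO 1 side) and a genotype difference (KO minus WT), both on the log2 scale. A gene was also compared within each genotype, WT 1 against the mean of WT 2 and WT 3 and the mean of KO 2 and KO 3 against KO 1, which share no library. Genes at least 2-fold apart in both genotypes, in the same direction and with the lone library outside the other pair, numbered 1017 of 15223 tested (6.68%), of which 267 (1.75%) were higher and 750 (4.93%) lower on the WT 1 side. In 91 genes (0.598%) the genotypes went opposite ways, so 91.8% of the genes 2-fold apart in both went the same way. Because the sides were chosen from these same counts, that choice favours agreement in direction, and the share is a description only. For comparison, 1127 genes (7.40%) were called between KO and WT by edgeR's quasi-likelihood test, and 32 of the 1017 were among them. Just inside the 2-fold limit lay Hsd3b7, with within-genotype differences of -1.03 and -1.0, and just outside it lay Noct, at 0.998 in WT and 1.04 in KO. The 3 libraries of one side did not overlap the 3 of the other in 717 of the 1017 genes. None of those 717 was called between KO and WT, which the definition brings about, since each genotype then holds libraries from both levels.

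The 5 programs differed in which libraries carried them. Ribosome biogenesis genes were high in all 3 libraries of the WT 1 side and low in all 3 of the KO 1 side. Lysosomal genes had the reverse order at a smaller size. In their medians, interferon-stimulated, antigen presentation and contractile genes differed mostly between WT 1 and KO 1, with WT 2, WT 3, KO 2 and KO 3 close together between them. For antigen presentation this median joined 2 unlike lists. KO 2 and KO 3 minus WT 2 and WT 3 was 0.68 for class I heavy chains and B2m and -0.35 for immunoproteasome, transport and loading genes. Since 1 WT and 2 KO libraries lie on one side and 2 WT and 1 KO on the other, a gene with KO 1 at one end, WT 1 at the other and equal levels elsewhere is written by the fit as a genotype difference and an opposite split difference. For such genes a split of the 6 libraries cannot be told apart from 2 single libraries that deviate in opposite directions.

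**Figure D2:**
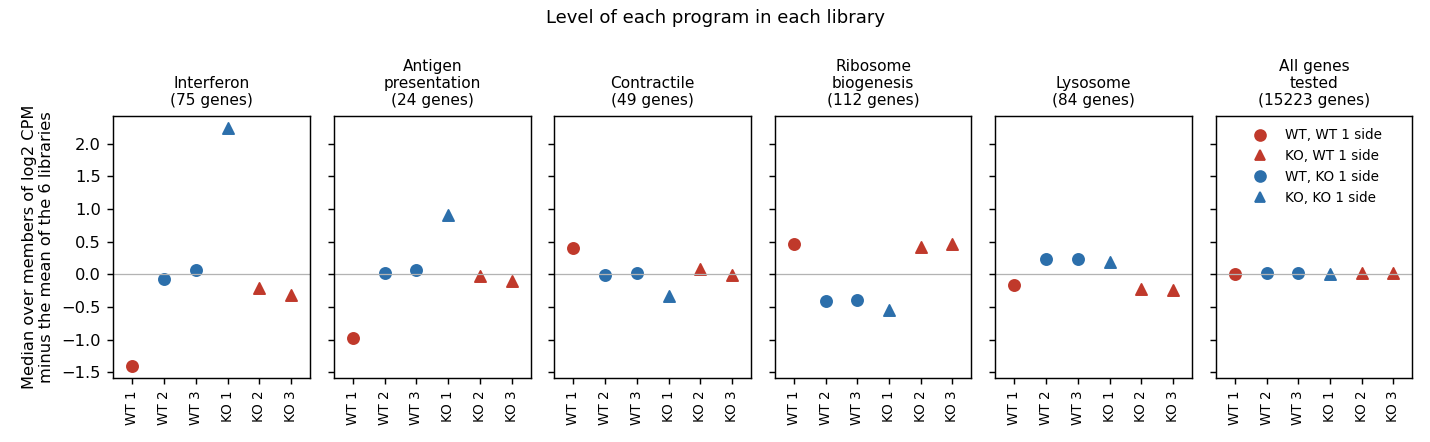
Median over the members of each program (y axis, log2 CPM minus the gene's mean over the 6 libraries) in each library (x axis), with circles for WT, triangles for KO, red for the WT 1 side and blue for the KO 1 side. Ribosome biogenesis (0.42 to 0.46 against -0.54 to -0.39) and lysosome (-0.23 to -0.16 against 0.19 to 0.23) separate by side, while interferon genes run from -1.40 in WT 1 to 2.24 in KO 1 with the other libraries within -0.31 to 0.07.

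Ribosome biogenesis genes followed the split and not genotype. Of 112 members, all of them tested, 37 were at least 2-fold higher on the WT 1 side in both genotypes and 0 lower (1.75% and 4.93% of all genes). At least 1.5-fold higher were 78 (5.87% of all genes were), and 104 had no overlap between the sides (18.7% of all genes). The median split difference was 0.92, against -0.03 over all genes, and the median genotype difference of the same fit was -0.06. Within the genotypes the medians were 0.85 in WT and 0.97 in KO. The split alone took up 91.8% of the variance of these genes, genotype alone 10.4%, and both together 97.5%.

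Rrp12 (ENSMUSG00000035049.4, minus strand of GRCm38 chr19:41862851-41896173), a factor that exports and matures both ribosomal subunits, was at 80.7, 17.6 and 18.8 CPM in WT 1 to 3 and 16.5, 90.5 and 86.3 CPM in KO 1 to 3. WT 1, KO 2 and KO 3 were thus high and within 1 narrow range, with a 4.43-fold difference inside WT and 5.36-fold inside KO. Mdn1, the AAA ATPase that remodels precursors of the large subunit, was at 127, 28.0 and 37.2 CPM in WT and 40.2, 152 and 116 CPM in KO. Ddx21, an RNA helicase of the nucleolus, stood at 558, 177 and 203 CPM in WT and 121, 509 and 500 CPM in KO. Heatr1, a component of the small subunit processome, was at 147, 43.6 and 52.5 CPM in WT and 39.6, 149 and 145 CPM in KO. In each of these genes no library of one side reached the level of the other side. Nolc1, a nucleolar chaperone of small nucleolar RNPs, was 2.79-fold higher in WT 1 than in WT 2 and WT 3 and 3.57-fold higher in KO 2 and KO 3 than in KO 1. Mybbp1a, Utp20 and Rrs1 differed 2.63-fold, 2.61-fold and 2.53-fold within WT and 3.08-fold, 3.05-fold and 3.11-fold within KO. The abundant nucleolar proteins showed it as well, with nucleolin (Ncl) at 1860, 705 and 738 CPM in WT and 721, 2003 and 2091 CPM in KO.

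By stage of the pathway, the median split difference was 0.58 for RNA polymerase I and its factors (14 genes, 2 of them 2-fold apart), 1.05 for small nucleolar RNP proteins and chaperones (16 genes, 8 apart), 0.86 for the small subunit processome (39 genes, 12 apart) and 0.90 for large subunit assembly (43 genes, 15 apart). Among polymerase I genes Polr1b was at 81.7, 33.8 and 33.1 CPM in WT and 25.3, 71.3 and 68.8 CPM in KO, while Polr1c, a subunit shared with polymerase III, had a split difference of -0.15. The exceptions to the direction were few: Nsa2 lay lower on the WT 1 side in both genotypes (split difference -0.20), Taf1b went opposite ways, and Polr1c, Polr1h, Imp3 and Riok1 had a lone library inside its pair in at least 1 genotype. The 79 cytosolic ribosomal proteins, the building blocks of the ribosome, had a median split difference of 0.19, and 0 of them were 1.5-fold apart. At this small size, 29 of the 79 were higher on the WT 1 side without overlap and 0 lower (18.7% and 18.2% of all genes). Myc was at 108, 38.3 and 38.7 CPM in WT and 34.8, 86.7 and 92.2 CPM in KO, 2.80-fold and 2.56-fold apart, with no overlap. The MXD proteins and MXI1, which bind the same partner MAX and oppose MYC, lay the other way: Mxd4 stood at 54.5, 115 and 107 CPM in WT and 75.3, 40.0 and 36.1 CPM in KO, and Mxd1 and Mxi1 had split differences of -0.91 and -0.93. Max itself was at 0.21. In KO against WT 1 member of the program was called higher (3.55% of all genes were) and 0 lower: Imp3, a small subunit processome protein, which averaged 19.3 ± 1.07 CPM over WT and 31.3 ± 3.12 CPM over KO libraries (SD, n = 3; edgeR adjusted p = 0.0247), a call lost without WT 2, WT 3, KO 2 or KO 3 (adjusted p from 0.0597 to 0.121).

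Promoter windows of RefSeq (250 bases before to 50 after a gene's most upstream start in the RefSeq table, GRCm38.p6) were searched on both strands. A window was found for 93 of the 112 genes, and 20 (21.5%) held the E-box CACGTG, the sequence bound by MYC and MAX and by other factors of their class, against 10.1% of the 10565 tested genes with a window. The same E-box was in 19 of 64 lysosomal windows (29.7%), a program that lay the opposite way. Nop2, a methyltransferase of ribosomal RNA at 223, 89.2 and 86.3 CPM in WT and 57.2, 170 and 172 CPM in KO, and Nol11, a processome protein at 82.1, 50.1 and 51.5 CPM in WT and 51.7, 89.7 and 86.4 CPM in KO, are shown as examples with the E-box in capitals (Nop2 chr6:125131778-125131873, plus strand; Nol11 chr11:107189382-107189469, minus strand). A match describes the letters and does not show that a factor binds.
Nop2: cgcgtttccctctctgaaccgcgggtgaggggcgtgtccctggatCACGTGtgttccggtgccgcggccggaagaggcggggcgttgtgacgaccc
Nol11: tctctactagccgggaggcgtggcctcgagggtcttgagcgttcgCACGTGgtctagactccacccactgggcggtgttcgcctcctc

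Lysosomal genes were lower on the WT 1 side, at a small size shared by most members. Of 84 members 3 were at least 2-fold lower in both genotypes and 0 higher (4.93% and 1.75% of all genes). At 1.5-fold 22 were lower and 1, Gnptab, higher (11.3% and 5.87% of all genes), and 50 had no overlap with the WT 1 side lower (18.2% of all genes). The median split difference was -0.47, with -0.46 within WT and -0.49 within KO, and the median genotype difference was -0.07. The split alone took up 58.8% of the variance of these genes, genotype alone 40.7%, and both together 95.4%. Arsa (ENSMUSG00000022620.14, minus strand of GRCm38 chr15:89472476-89477425), which degrades sulfatides, showed the pattern most plainly: it was at 31.1, 65.9 and 63.8 CPM in WT and 61.2, 31.2 and 28.6 CPM in KO, 2.08-fold and 2.05-fold apart. The cathepsin Ctso was at 1.66, 5.08 and 5.42 CPM in WT and 11.4, 2.21 and 2.06 CPM in KO. Ctsf, another cathepsin, was at 2.19, 7.02 and 6.50 CPM in WT and 13.1, 3.68 and 3.94 CPM in KO. In these 2 cathepsins KO 1 was the highest library by a margin. Among abundant enzymes Ctsb was at 476, 812 and 775 CPM in WT and 939, 552 and 540 CPM in KO.

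The hydrolases had a median split difference of -0.59 (46 genes, 18 of them 1.5-fold lower), the membrane proteins and transporters -0.41 (23 genes, 3 lower) and the subunits of the V-ATPase, the pump that acidifies the lysosome, -0.13 (15 genes, 1 lower). The calcium channel Mcoln1 (39.3, 64.6 and 59.0 CPM in WT; 64.8, 32.4 and 33.9 CPM in KO) and the cholesterol carrier Npc2 (213, 338 and 310 CPM in WT; 320, 158 and 163 CPM in KO) belonged to the 1.5-fold group. The regulators differed among themselves. Tfeb and Tfe3 had split differences of -0.01 and -0.02, and Tfeb was called lower in KO (22.8 ± 2.68 CPM over WT, 14.2 ± 1.32 CPM over KO; edgeR adjusted p = 0.0442), a call held without WT 1 (0.0429) and lost without any other library (0.0751 to 0.179). As a group, the 14 genes of the TFEB family and the mTORC1 arm had a median of -0.08 with 0 genes 2-fold apart. Rragd, Lamtor2 and Lamtor1, which anchor mTORC1 to the lysosome, were lower on the WT 1 side in both genotypes (split differences of -1.17, -0.59 and -0.43), and the sides did not overlap in Lamtor2 and Lamtor1. Rragd differed more by genotype (2.92 in the same fit), at 0.583, 0.832 and 1.08 CPM in WT and 9.13, 3.24 and 3.29 CPM in KO. Rragd was called higher in KO (edgeR adjusted p = 0.0322), a call held without KO 1 (0.0361) and lost without any other library (0.0678 to 0.129). Of the 84 members 2 were called higher and 3 lower in KO (3.55% and 3.86% of all genes). Ctsh, a cathepsin with aminopeptidase activity, was higher (1.37 ± 0.52 CPM over WT, 7.20 ± 2.13 CPM over KO libraries, SD, n = 3; edgeR adjusted p = 0.0144) and lost its call without WT 3, KO 2 or KO 3 (0.0789, 0.0537 and 0.0505). Sort1, a sorting receptor, was the other gene called higher (12.1 ± 4.19 CPM over WT, 28.2 ± 0.567 CPM over KO; edgeR adjusted p = 0.0425) and held its call without WT 1 alone (0.0153; 0.0682 to 0.138 without each other library). Hexa, Lamp1 and Clcn7 were called lower (adjusted p = 0.0389, 0.0361 and 0.0412) and lost the call without WT 2, WT 3, KO 2 or KO 3, with adjusted p from 0.128 to 0.179, and Clcn7 also without KO 1 (0.057).

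The element TCACGTGA, the core of the sequence through which TFEB acts on lysosomal genes and one that contains the E-box, was in 10 of the 64 lysosomal windows found (15.6%), against 1.91% of tested genes with a window. Ctsd, the aspartic protease cathepsin D, had it upstream of its RefSeq start, which lies 211 bases inside the GENCODE M21 gene (chr7:142387874-142387971, minus strand), and Igf2r, the receptor that carries enzymes to the lysosome, had it at 2 places (chr17:12769707-12769759, minus strand), in capitals here. Ctsd was at 471, 661 and 635 CPM in WT and 551, 390 and 399 CPM in KO, without overlap between the sides, whereas Igf2r, at 352, 368 and 433 CPM in WT and 286, 269 and 236 CPM in KO, overlapped between them.
Ctsd: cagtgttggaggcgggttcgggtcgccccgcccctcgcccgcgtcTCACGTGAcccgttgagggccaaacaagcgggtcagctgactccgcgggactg
Igf2r: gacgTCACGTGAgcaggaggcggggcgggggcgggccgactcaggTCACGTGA

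Interferon-stimulated genes were lowest in WT 1 and highest in KO 1. Of 86 listed genes 75 were tested, and 50 of them were at least 2-fold lower on the WT 1 side in both genotypes and 0 higher (4.93% and 1.75% of all genes). The median split difference was -1.96 and the median genotype difference of the same fit 1.78. Within WT the median was -1.23 and within KO -2.31. KO 1 was the highest and WT 1 the lowest of the 6 libraries in 61 of the 75 genes (81.3%; 12.8% of all genes tested). The median of KO 1 minus WT 1 was 3.78, and the median of KO 2 and KO 3 minus WT 2 and WT 3 was -0.28. The sides did not overlap, with the WT 1 side lower, in 35 of the 75 (18.2% of all genes). The split alone took up 33.3% of the variance of these genes, genotype alone 36%, and both together 91.8%. Side and genotype are not balanced over the libraries, so the shares alone do not add up to the joint share. The size of the split rested on KO 1 in part: the median was -1.26 without KO 1 and -2.36 without WT 1.

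Isg15, a ubiquitin-like antiviral protein, was at 3.99, 13.4 and 15.9 CPM in WT and 171, 22 and 19.6 CPM in KO, so KO 2 and KO 3 lay slightly above WT 2 and WT 3 and the sides overlapped. Irf7, the factor that amplifies the interferon response, was at 1.22, 4.97 and 6.20 CPM in WT and 49.4, 3.26 and 3.99 CPM in KO. Usp18, which removes ISG15 and damps the receptor, was at 1.91, 9.40 and 10.2 CPM in WT and 72.6, 7.93 and 8.46 CPM in KO. In Irf7 and Usp18 no library of the WT 1 side reached the KO 1 side, yet KO 2 and KO 3 were nearer, in fold, to WT 2 and WT 3 than to WT 1. Trim30a, Ifi27l2a and Phf11d, antiviral or nuclear proteins of the response, had split differences of -3.62, -4.17 and -3.33. Phf11d differed more by genotype (5.45 in the same fit), at 0.194, 0.716 and 0.826 CPM in WT and 42.2, 3.07 and 3.94 CPM in KO. Several genes had 0 counts in WT 1, where 3 counts are 0.0786 CPM: the sensor Zbp1 was at 14.3 CPM in KO 1 and at most 1.12 CPM elsewhere, the GTPase Iigp1 at 20.6 CPM in KO 1 and at most 1.06 CPM elsewhere, and Ifi44 at 24.8 CPM in KO 1 and at most 1.88 CPM elsewhere. Oas2 and Oas3, which make the activator of RNase L, were at 6.73 and 5.28 CPM in KO 1 and at 0 in WT 1.

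By role, the median split difference was -1.42 for the RNA sensors and STAT and IRF factors (10 genes, 5 of them 2-fold lower), -1.90 for antiviral effectors (50 genes, 35 lower) and -2.6 for the guanylate-binding and immunity-related GTPases (13 genes, 10 lower). Gbp7 was at 1.39, 6.21 and 10.4 CPM in WT and 39.1, 4.97 and 4.90 CPM in KO. Upstream of the response the differences were smaller. Of 11 genes for interferons 0 could be tested: 10 had no reads in any library, which allows up to 0.068 to 0.0871 CPM each, and Ifna4 had 3 counts, all in WT 2. The 17 receptors, kinases and adaptors had a median split difference of -0.22 with 0 genes 2-fold apart. In 7 of the 17 the sides did not overlap with the WT 1 side lower, and in 0 with it higher (18.2% and 18.7% of all genes). The receptor Ifnar1 was at 95.1, 129 and 127 CPM in WT and 123, 93.3 and 86.9 CPM in KO, and Socs3, a feedback inhibitor, had a split difference of -0.77. The DNA sensor Cgas was instead called higher in KO (12.8 ± 2.87 CPM over WT, 29.5 ± 3.08 CPM over KO, SD, n = 3; edgeR adjusted p = 0.0155), a call held without WT 1 or KO 1 (0.00825 and 0.0227) and lost without any other library (0.0641 to 0.0863).

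Of 75 members 4 were called higher in KO and 0 lower by edgeR (3.55% and 3.86% of all genes), a count that was 18 with DESeq2, 7 without KO 1 and 2 without WT 2, WT 3 or KO 3. The chemokine gene Cxcl10 (ENSMUSG00000034855.13, minus strand of GRCm38 chr5:92346638-92348889) was at 5.27, 4.34 and 4.66 CPM in WT and 48.2, 36.1 and 31.2 CPM in KO, an 8.10-fold difference (log2 fold change 3.02, SE 0.21, adjusted p = 0.00106) with a split difference of -0.19. Trim25, a ubiquitin ligase of RNA sensing, was at 15.0, 12.2 and 13.9 CPM in WT and 119, 72.4 and 66.2 CPM in KO (6.27-fold, adjusted p = 0.00249). In both genes the WT libraries were alike and all KO libraries were higher, and both calls held with any 1 library left out. The other 2 genes called kept WT 1 lowest and KO 1 highest. The large GTPase gene Gvin1 was at 27.8, 41.5 and 45.7 CPM in WT and 114, 87.8 and 78.1 CPM in KO, and the chemokine gene Ccl5 at 1.11, 2.06 and 2.43 CPM in WT and 32.6, 8.49 and 10.5 CPM in KO. Gvin1 (adjusted p = 0.0222) lost its call without WT 2, WT 3, KO 2 or KO 3 (0.0564 to 0.0807), and Ccl5 (0.0276) without WT 1, WT 2, WT 3 or KO 3 (0.0631 to 0.109).

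The response element GAAANNGAAA was in 27 of the 55 interferon windows found (49.1%), against 2.88% of tested genes with a window. It was in 9.74% of the 544 windows of genes 2-fold lower on the WT 1 side. Those genes include 50 of the 75 interferon genes tested, so they are not a separate set. Of 179 windows of genes 2-fold higher on that side 2 (1.12%) held it. Matches can overlap, as the 3 in Isg15 do. The stretches shown are those of Isg15 (chr4:156200830-156200929, minus strand), of Ifit1, a protein that binds viral RNA ends (chr19:34640759-34640858, plus strand), of Gbp7 (chr3:142530238-142530335, plus strand) and of Trim30a (chr7:104465194-104465274, minus strand), with each element in capitals on the strand where the gene is read. Ifit1 was at 4.52, 10.6 and 12.7 CPM in WT and 106, 32.4 and 31.9 CPM in KO, and Trim30a at 0.472, 3.16 and 4.09 CPM in WT and 13, 0.657 and 0.852 CPM in KO.
Isg15: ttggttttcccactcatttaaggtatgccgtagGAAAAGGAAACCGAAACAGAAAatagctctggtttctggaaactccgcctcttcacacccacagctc
Ifit1: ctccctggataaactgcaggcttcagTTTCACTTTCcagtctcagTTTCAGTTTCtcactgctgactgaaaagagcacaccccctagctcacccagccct
Gbp7: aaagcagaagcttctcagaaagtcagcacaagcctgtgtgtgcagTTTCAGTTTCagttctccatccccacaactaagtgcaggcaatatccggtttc
Trim30a: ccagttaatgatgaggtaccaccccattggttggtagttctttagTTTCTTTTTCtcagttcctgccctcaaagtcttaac

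**Figure D3:**
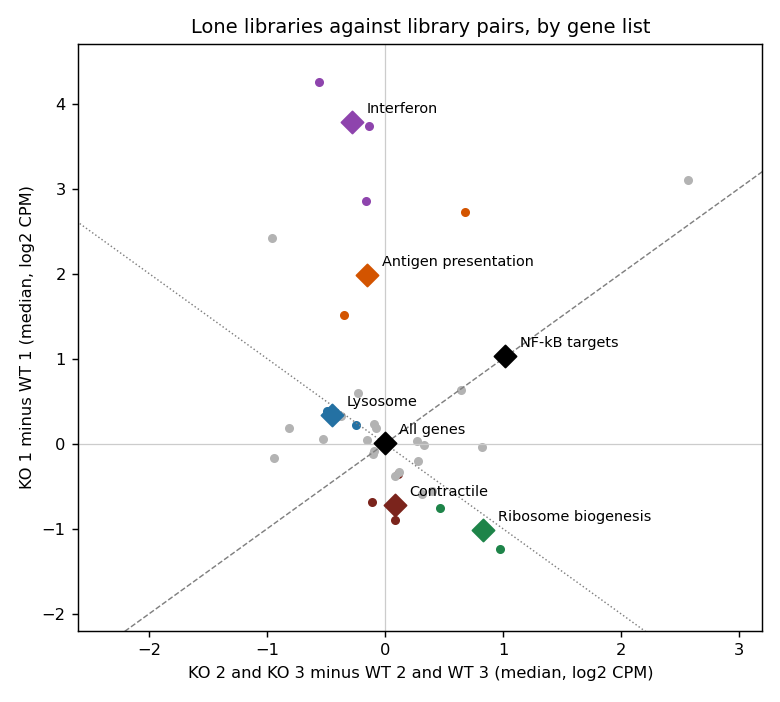
Median over the members of each gene list of KO 1 minus WT 1 (y axis, log2 CPM) against the mean of KO 2 and KO 3 minus the mean of WT 2 and WT 3 (x axis), with diamonds for whole programs and small points for lists. A pure genotype difference lies on the dashed line, as NF-kB targets do (1.02 and 1.04), and a pure split on the dotted line, near which ribosome biogenesis (0.83 and -1.01) and lysosome (-0.45 and 0.34) lie, while interferon (-0.28 and 3.78) lies near the vertical axis.

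In their library medians, antigen presentation genes had the order of the interferon-stimulated genes, at a smaller size. Of 24 tested members of 29 listed 10 were at least 2-fold lower on the WT 1 side in both genotypes and 0 higher (4.93% and 1.75% of all genes). The median split difference was -1.05 and the median genotype difference 0.72. KO 1 was the highest and WT 1 the lowest library in 18 of the 24. The split alone took up 24.9% of the variance, genotype alone 50%, and both together 97.1%. Class I heavy chains and B2m had a median genotype difference of 1.87 and a split difference of -1.09 (11 genes), and immunoproteasome, transport and loading genes 0.43 and -0.99 (13 genes).

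The transporter gene Tap1, which carries peptides into the endoplasmic reticulum, was at 6.27, 19.3 and 17.5 CPM in WT and 49.3, 9.92 and 10.2 CPM in KO, without overlap between the sides. The immunoproteasome subunits Psmb8 and Psmb9 were at 22.8 and 8.25 CPM in KO 1, at 0.444 and 0.194 CPM in WT 1 and between 0.375 and 3.97 CPM in the other libraries. Nlrc5, the activator of class I genes, was at 0.749, 4.09 and 4.38 CPM in WT and 18.1, 3.71 and 2.64 CPM in KO. The classical heavy chain H2-K1 (ENSMUSG00000061232.16, minus strand of GRCm38 chr17:33996017-34000347) combined a genotype difference with the order of the lone libraries: it was at 22.4, 45.1 and 39.8 CPM in WT and 328, 146 and 158 CPM in KO. All 3 KO libraries were above all WT libraries, WT 1 was the lowest of WT and KO 1 the highest of KO. H2-K1 was called (5.89-fold, adjusted p = 0.0152), but not without WT 2 (0.0535) or WT 3 (0.075). H2-D1 was called as well (0.0275), but not without any 1 of the libraries other than KO 1 (0.0531 to 0.111). H2-Q4, H2-Q6 and H2-Q7 had split differences of -1.76, -2.32 and -2.43 and greater genotype differences of 3.39, 4.23 and 4.97 in the same fit. They are close paralogs, and how the counting divided their reads is not known. H2-Q7 was the third gene called higher (0.0479), a call lost with any library left out (0.0636 to 0.18). Tapbpl, a peptide editor, was called lower in KO (0.0408), a call held without WT 1 (0.0126) and lost without any other library (0.0728 to 0.165). In all, 3 of the 24 members were called higher and 1 lower in KO (3.55% and 3.86% of all genes). The chaperones Calr and Canx, which serve glycoproteins in general, lay the other way, each 0.32 higher on the WT 1 side.

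Of 20 windows found for this program 5 (25.0%) held GAAANNGAAA. H2-T23, a nonclassical class I gene at 8.07, 25.3 and 23.1 CPM in WT and 53.8, 13.3 and 11.5 CPM in KO, is shown, upstream of a RefSeq start 154 bases inside the GENCODE M21 gene (chr17:36032771-36032870, minus strand).
H2-T23: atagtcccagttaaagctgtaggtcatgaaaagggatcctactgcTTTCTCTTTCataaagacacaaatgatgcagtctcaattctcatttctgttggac
MHC class II genes were close to absent. Cd74 and 2 of the DM genes, H2-DMa and H2-DMb1, were tested and each was at least 2-fold lower on the WT 1 side, with Cd74 at 6.47 CPM in KO 1 and 0.583 CPM in WT 1. H2-Aa had no reads in any library and the class II activator Ciita had 3 counts in KO 1, 2 in KO 2 and 0 elsewhere.

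Contractile genes were highest in WT 1 and lowest in KO 1. Of 49 tested members of 51 listed 3 were at least 2-fold higher on the WT 1 side in both genotypes and 1 lower (1.75% and 4.93% of all genes), and 14 were at least 1.5-fold higher and 3 lower (5.87% and 11.3% of all genes). The median split difference was 0.45 and the median genotype difference -0.36. The split alone took up 25.1% of the variance, genotype alone 51.8%, and both together 86.8%. WT 1 was the highest and KO 1 the lowest library in 27 of the 49 (55.1%; 12.2% of all genes tested). The median of KO 1 minus WT 1 was -0.73, and that of KO 2 and KO 3 minus WT 2 and WT 3 was 0.08. Sublists lay at 0.52 (actins, transgelins, calponins and tropomyosins), 0.20 (myosins and their kinases) and 0.53 (stress fibre anchors).

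Tagln (ENSMUSG00000032085.5, minus strand of GRCm38 chr9:45929619-45936058), an actin-binding protein of smooth muscle and of stressed fibroblasts, was at 342, 101 and 89.5 CPM in WT and 93.6, 207 and 227 CPM in KO, without overlap between the sides. Fhl1, a LIM protein of muscle, was at 228, 56.6 and 56.6 CPM in WT and 21.2, 78.3 and 74.5 CPM in KO, also without overlap but with KO 2 and KO 3 nearer to WT 2 and WT 3. Acta2, smooth muscle actin, was at 735, 246 and 253 CPM in WT and 23.3, 76.1 and 73.3 CPM in KO. It lay lower in every KO library, and within each genotype it was about equally far apart, 2.94-fold in WT and 3.2-fold in KO. Its call in KO against WT (7.14-fold lower, adjusted p = 0.0425) was lost with any 1 library left out (0.0538 to 0.13). The other members called lower in KO were Tgfb1i1 (0.0204) and Fhl2 (0.0325), and 0 were called higher, against 3.86% and 3.55% of all genes. Tgfb1i1 lost its call without WT 2, WT 3, KO 2 or KO 3 (0.0511 to 0.0994) and Fhl2 without any 1 library but KO 1 (0.0504 to 0.102). The filamin gene Flnc, an actin crosslinker, was at 676, 402 and 446 CPM in WT and 235, 650 and 593 CPM in KO. Of the genes that lay lower on the WT 1 side Myl12b was at 36.5, 92.1 and 78.9 CPM in WT and 143, 95.1 and 89.6 CPM in KO. Desmin (Des) was the gene 2-fold lower, at no more than 1.11 CPM in any library. Srf was at 117, 62.8 and 62.6 CPM in WT and 46.2, 77.6 and 84.3 CPM in KO.

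The CArG box, the site of SRF, was in 6 of the 41 contractile windows found (14.6%), against 1.32% of tested genes with a window. Fhl1 (chrX:56779536-56779635, plus strand) and Myl9, a myosin light chain at 47.7, 22 and 24.3 CPM in WT and 13.6, 18.0 and 19 CPM in KO (chr2:156775258-156775357, plus strand), are shown with the box in capitals. The RefSeq start used for Fhl1 lies 47896 bases inside the gene as GENCODE M21 draws it, so this stretch is upstream of an inner start only.
Fhl1: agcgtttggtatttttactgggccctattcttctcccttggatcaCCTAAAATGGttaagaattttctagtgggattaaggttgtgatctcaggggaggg
Myl9: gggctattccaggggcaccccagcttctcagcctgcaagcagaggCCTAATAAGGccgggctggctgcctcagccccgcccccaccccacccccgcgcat

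**Figure D4:**
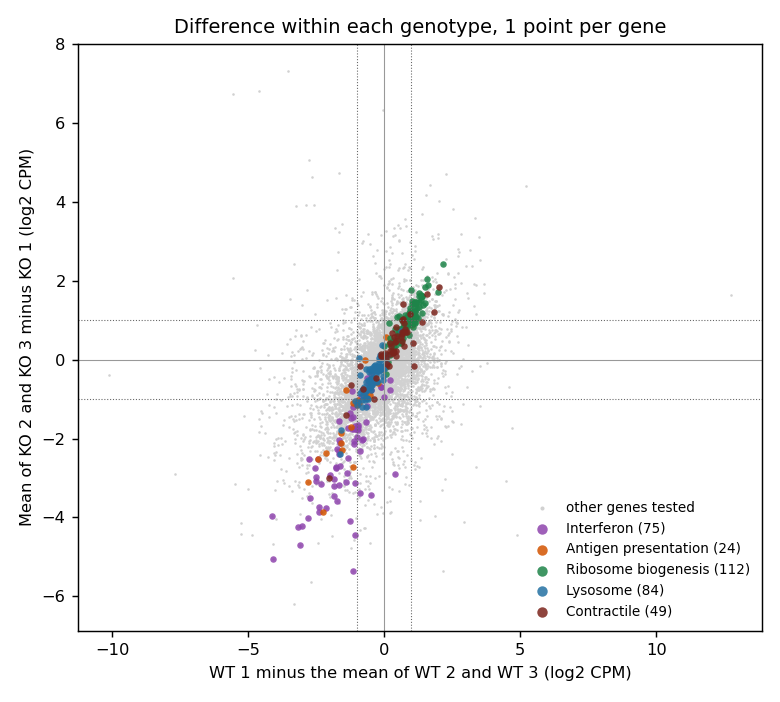
Each tested gene as 1 point, with WT 1 minus the mean of WT 2 and WT 3 on the x axis and the mean of KO 2 and KO 3 minus KO 1 on the y axis (log2 CPM), dotted lines at 2-fold and the 5 programs in colour. The axes share no library, but the sides were chosen from these counts, which favours agreement between the axes. Ribosome biogenesis genes lie at the upper right (medians 0.85 and 0.97) and interferon genes at the lower left (-1.23 and -2.31).

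**Figure D5:**
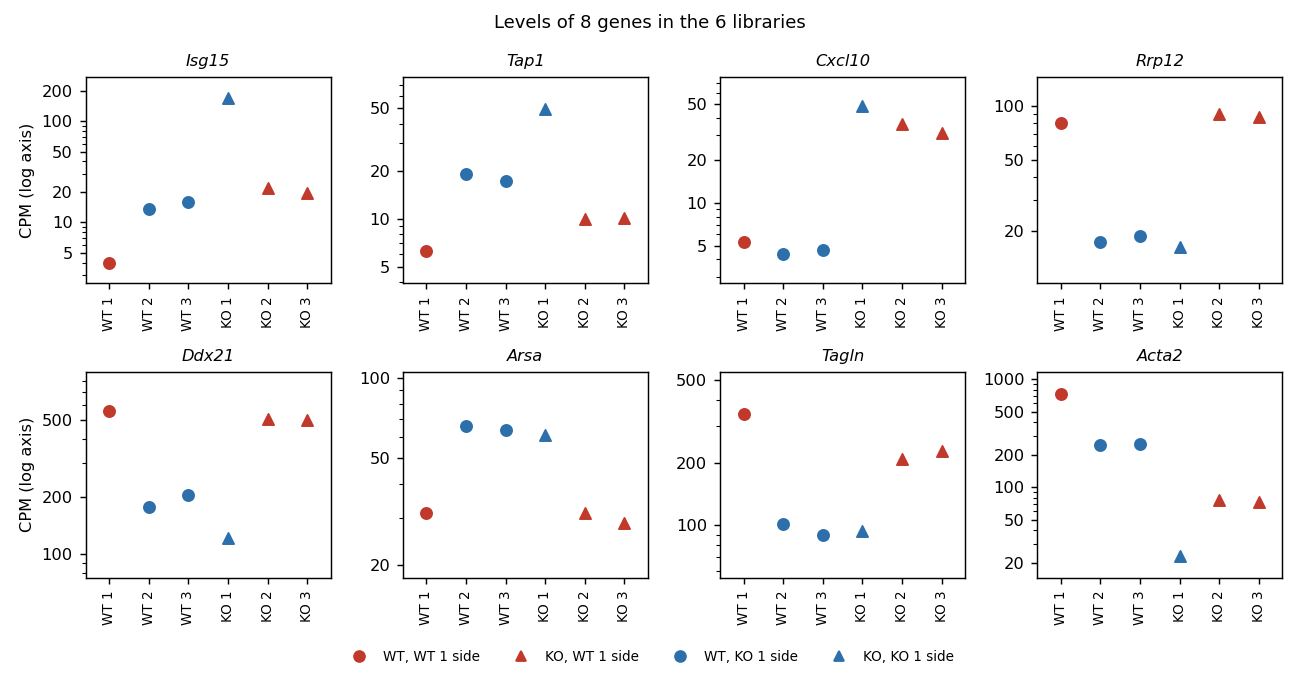
Levels of 8 genes (y axis, CPM on a log axis that differs by panel) in the 6 libraries (x axis), with circles for WT, triangles for KO, red for the WT 1 side and blue for the KO 1 side. Rrp12, Ddx21 and Arsa separate by colour, Cxcl10 by shape, and Isg15 and Acta2 place WT 1 and KO 1 at the ends.

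Among tested genes that averaged 5 CPM or more, the greatest split differences in which the sides did not overlap came from these programs and from others. Higher on the WT 1 side were Ripor2 (2.78), Ankrd1 (2.29), Rrp12 (2.28), Ptgs2 (2.27), Ccn2 (2.12), Commd5 (2.0), Fhl1 (1.94), Dlk2 (1.93) and Coch (1.88). Ankrd1 and Ccn2 are known targets of YAP, a factor that responds to cell tension. Ankrd1 was at 48.9, 7.95 and 8.08 CPM in WT and 6.91, 27.8 and 25.0 CPM in KO. Ccn2 was at 270, 49.6 and 50.4 CPM in WT and 37.0, 123 and 134 CPM in KO. Ptgs2, the inducible cyclooxygenase, was at 141, 25.6 and 29.9 CPM in WT and 34.1, 153 and 160 CPM in KO, so its KO 2 and KO 3 levels matched WT 1. Lower on the WT 1 side were Mmp3 (-3.43), Xaf1 (-3.30), C1s1 (-3.20), Irf7 (-3.17), Itgbl1 (-2.91), Uba7 (-2.89), Penk (-2.88), Bmf (-2.85), Usp18 (-2.83) and Gbp7 (-2.82). Xaf1, Irf7, Uba7, Usp18 and Gbp7 belong to the interferon list. Mmp3, a matrix-degrading protease, was at 0.555, 6.95 and 5.71 CPM in WT and 18.0, 1.71 and 1.76 CPM in KO. Itgbl1, a protein related to integrins, was at 1.78, 14.6 and 12.3 CPM in WT and 10.8, 1.41 and 1.47 CPM in KO. Bmf, a BH3-only activator of cell death, was at 1.44, 23.7 and 23.2 CPM in WT and 24.5, 5.37 and 6.93 CPM in KO. In Itgbl1 and Bmf the 3 libraries of the KO 1 side lay close together across genotypes.

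Lists of other functions placed the programs among them. Targets of NF-kB, a factor of inflammation, followed genotype and not the split: of 25 tested members 12 were called higher in KO and 0 lower by edgeR (3.55% and 3.86% of all genes), 1 was 2-fold higher and 1 lower on the WT 1 side in both genotypes (1.75% and 4.93% of all genes), the median genotype difference was 1.00 and the median split difference 0.00. Their library medians were -0.58 to -0.50 in WT and 0.47 to 0.55 in KO. Genes of S phase had a median split difference of 0.01 and those of G2 and mitosis 0.25, and 0 of these 44 and 48 genes were 1.5-fold apart in both genotypes. At this small size, 24 of the 48 G2 and mitosis genes were higher on the WT 1 side without overlap and 3 lower (18.7% and 18.2% of all genes). Among the 44 S phase genes these counts were 8 and 6. With tested genes in 5 groups of equal size, the median split difference ran from -0.12 to 0.11 by transcript length, from -0.16 to 0.05 by GC content and from -0.24 to 0.16 by mean CPM. By chromosome the share of genes 2-fold apart in both genotypes ran from 5.33% on the X chromosome to 8.08% on chromosome 17, which holds the MHC.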

How the data were processed

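The deposited values were whole-number read counts per gene symbol, 1 table per library, and the authors did not scale them, as their unequal totals show. Reads were trimmed with Trim Galore 0.6.6 and aligned with HISAT2 2.2.1, per the submitters' processing notes. Which program counted the reads, whether it used strand, and on which annotation is not given in the sources used here, so reads of overlapping, antisense and paralogous genes may be divided in ways that cannot be seen. The build in those notes is a human one while the symbols are murine, and authors' coordinates were not needed. Positions were looked up in GENCODE M21 (GRCm38), which held 92.9% of the symbols, and promoter sequences from RefSeq (GRCm38.p6).

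Groups came from the sample titles. Of 53762 genes 15223 passed edgeR's expression filter by genotype. TMM-scaled CPM and log2 CPM (prior count 2) were computed with edgeR 4.0.16 and limma 3.58.1 in R 4.3.3. KO against WT was tested with edgeR's quasi-likelihood test with Benjamini-Hochberg adjustment, called under an adjusted p of 0.05, and every adjusted p in the text is from this test. An additive fit of genotype and side gave split differences without a test. Both steps were tested on simulated counts over 15016 genes. For KO against WT the test called 58 of 100 genes with a 2-fold change and 100 of 100 with a 4-fold change, and 11 of 169 calls were false. Simulated split differences of -2, -1, 1 and 2 (log2) were returned with medians of -2.07, -1.01, 1.06 and 2.05. The totals leave counting error small except below about 1 CPM, and 3 counts are 0.068 to 0.0871 CPM. Intervals and floors cover counting error only.

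The split, the gene lists and the named genes were chosen with earlier results of these data known. Named genes were Ppme1, up to 8 members a program with the greatest split difference among those 2-fold apart in both genotypes (mean of at least 1 CPM), up to 4 members a program with the smallest adjusted p in KO against WT, the 10 highest and 10 lowest split differences over all genes (mean of at least 5 CPM, no overlap between sides), and upstream members by value. The remaining names in the text were picked after seeing their values. Some genes that meet these rules are not reported here. The alternatives tried were other scaling factors, filters, fold limits, DESeq2 1.42.0, a replicate block, the side as a term, and each library left out. Deviations of same-numbered libraries from their genotype correlated at -0.512, -0.307 and -0.223 across genes for numbers 1, 2 and 3. The libraries that stood apart, WT 1 and KO 1, are both numbered 1 and deviated in opposite directions. The labels do not say whether same-numbered libraries were handled together, and these correlations cannot decide it.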

Additional observations from a re-analysis of the deposited data

Results flagged for a closer look

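In 91 genes the lone library differed at least 2-fold from its pair within WT and within KO, but in opposite directions of the split. The difference between the genotypes was not tested. Among them Pcdhga7, a clustered protocadherin whose exons are shared with neighbouring genes of the cluster, was at 10.6, 0.693 and 1.08 CPM in WT 1 to 3 and at 11.6, 6.76 and 3.79 CPM in KO 1 to 3. It was 3.53 higher (log2) in WT 1 than in WT 2 and WT 3, and KO 2 and KO 3 lay below KO 1 by a log2 difference of 1.18 in size. Of the 91 genes 4 had a mean of at least 5 CPM.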

How the results depend on the processing

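Genes called between KO and WT numbered 1127 by edgeR, 2406 with DESeq2 (all 1127 among them) and 4931 with the side of the split as a term, whose p-values are too small because the side was chosen from the counts. They ranged from 332 (without WT 3) to 1216 (without WT 1) with 1 library left out, and were 385 without WT 2, 375 without KO 2, 359 without KO 3 and 1105 without KO 1. By program, members called were 4, 4, 1, 5 and 3 for interferon, antigen presentation, ribosome biogenesis, lysosome and contractile genes, 18, 6, 2, 13 and 7 with DESeq2 and 64, 19, 38, 43 and 28 with the side as a term. With 1 library left out they ran from 2 to 7, 0 to 2, 0 to 2, 0 to 6 and 0 to 3. Upper-quartile factors and library sizes alone each gave 2 for antigen presentation, and 2 and 1 for lysosome, where a mean of 5 CPM or more gave 3. With a replicate block 8 genes were called, 0 of them in these programs. Whether same-numbered libraries belong together is not given in the labels. Genes higher on the WT 1 side (267) were 145 at a mean of at least 5 CPM, 893 at 1.5-fold and 19 at 4-fold. Genes lower there (750) were 317, 1718 and 140 in that order. Genes in opposite directions (91) were 403 without a filter, 4 at a mean of at least 5 CPM, 287 at 1.5-fold, 12 at 4-fold and from 165 to 178 without WT 2, WT 3, KO 2 or KO 3 in turn, an alternative added after seeing the data. These counts cannot be formed without WT 1 or KO 1. With library sizes alone the median split difference of all genes was -0.13 in place of -0.03, that of antigen presentation -1.15, of ribosome biogenesis 0.81, of lysosome -0.57 and of contractile genes 0.35. Upper-quartile factors gave -0.53 for lysosome and 0.39 for contractile genes, and contractile genes were at 0.41 without a filter and 0.43 with a minimum mean of 5 CPM. With 1 library left out antigen presentation ran from -1.13 to -0.97, lysosome from -0.53 to -0.46, contractile genes from 0.39 to 0.43 and interferon genes from -2.36 to -1.26. None of the results run here reversed under these alternatives. Over the 17 genes named for KO against WT, refits without 1 library kept the call 41 times and lost it 61 times, and the cause was not tested.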

Other observations

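Groups outside the 5 programs also differed between the sides. Of 44 tested collagen and matrix genes 13 were at least 2-fold lower on the WT 1 side in both genotypes and 2 higher (4.93% and 1.75% of all genes), with a median split difference of -0.46, and 12 were called lower and 1 higher in KO by edgeR (3.86% and 3.55% of all genes). Col3a1, a fibrillar collagen, was at 525, 3539 and 3375 CPM in WT 1 to 3 and at 2762, 797 and 824 CPM in KO 1 to 3. Ogn, a small proteoglycan, was at 20.6, 92.8 and 99.4 CPM in WT and 66.5, 16.7 and 16 CPM in KO. In both genes the sides did not overlap. Thbs1, an adhesive glycoprotein and a known target of YAP and SRF, lay the other way at 986, 271 and 320 CPM in WT and 338, 1006 and 952 CPM in KO. Of 10 tested complement and acute phase genes 7 were 2-fold lower and 1 higher (4.93% and 1.75% of all genes). The complement protease gene C1ra was at 7.27, 31.2 and 32.5 CPM in WT and 33.9, 11.6 and 11.4 CPM in KO.

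Of 25 tested targets of YAP 4 were 2-fold higher on the WT 1 side and 0 lower (1.75% and 4.93% of all genes), with a median of 0.34. Ccn1, a matricellular protein, was at 463, 128 and 119 CPM in WT and 123, 377 and 400 CPM in KO. The 23 immediate early genes, which respond to growth factor signalling, had a median of -0.03, with 3 at least 1.5-fold higher and 3 lower on that side (5.87% and 11.3% of all genes). Fosl1 and Dusp1 were 2 of those higher. Fosl1 was at 47.5, 14.1 and 11.5 CPM in WT and 18.5, 45.4 and 59.8 CPM in KO, and Dusp1 at 55.7, 24.6 and 27.4 CPM in WT and 24.7, 54.0 and 52.7 CPM in KO. Cdkn1a, the cell cycle inhibitor p21, was lower on that side at 37.3, 85.6 and 80.8 CPM in WT and 103, 32.6 and 31.4 CPM in KO. Pdk1, a kinase that restrains pyruvate entry into mitochondria, was lower as well, at 37.5, 109 and 101 CPM in WT and 174, 51.8 and 44.5 CPM in KO, and the 22 glycolysis genes had a median of -0.49. The mitochondrial chaperone Hspd1 was at 774, 340 and 376 CPM in WT and 357, 1076 and 1070 CPM in KO.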
